A study of Mus musculus with 6 samples.

Results

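Keratins are the intermediate filament proteins of epithelial cells, and the 10 genes described here, Krt5, Krt14, Krt15, Krt6a, Krt6b, Krt17, Krt18, Krt8, Krt1 and Krt10, are those of the basal layer, the hair follicle, activated epidermis, simple epithelium and the differentiating layers. Their readings are those of all probe sets of an Affymetrix mouse array whose platform annotation gives 1 of these 10 symbols. There were 15 such probe sets among 12488 rows, at least 1 for each of the 10 genes, where the array names 8251 genes in all. A further 35 probe sets stood for 23 other keratin genes.

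RNA came from keratinocytes of the skin of K15-EGFP transgenic mice, in which a keratin 15 promoter drives enhanced green fluorescent protein (EGFP), and the study asks for the gene profile of hair follicle stem cells. The cells were sorted by flow cytometry into an EGFP-high group (3 arrays, numbered 1 to 3) and an EGFP-negative group (3 arrays, numbered 1 to 3). Cells of both groups carried the same transgene and were positive for α6 integrin, the surface protein that basal keratinocytes hold at the basement membrane. EGFP reports the activity of the transgene's promoter and not the level of the mRNA of Krt15 itself. The labels give no age, strain, hair cycle stage or number of animals, and do not say whether the 3 arrays of a group came from separate animals or sorts. The p-values therefore reflect only how far these arrays differ among themselves, and some of that may be technical.

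Keratin filaments form from pairs of 1 type I and 1 type II protein. Basal keratinocytes make Krt5 (type II) with Krt14 (type I), and Krt15 is a further type I keratin of basal cells that is prominent in the bulge of the hair follicle, where its stem cells reside. Cells that leave the basal layer switch to Krt1 with Krt10. Krt6a, Krt6b and Krt17 are made in the follicle's companion layer and outer root sheath and are induced in wounded or activated epidermis, while Krt8 and Krt18 pair in simple epithelia and in Merkel cells, the touch receptor cells of the skin.

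The level of each keratin probe set was first read against control rows of the same array. The 66 control rows include bright spike-in and mouse actin rows. Their median lay between 38.3 and 45.95 and their 95th percentile between 4928 and 8546. Against those 95th percentiles 0 of the 15 probe sets were higher on all 6 arrays, and the brighter Krt10 probe set was higher on 4. The 19 rows of bacterial and yeast genes, chosen after the values were seen, give a lower bar, at a median between 9.6 and 16.5 and a 95th percentile between 25.5 and 42.25. Above that percentile on all 6 arrays were 8 of the 15 keratin probe sets, against 54% of all 12422 probe sets that are not controls. They were both probe sets of Krt6a, all 3 of Krt17, that of Krt6b, that of Krt1 and 1 of the 2 of Krt10. The other 7, those of Krt5, Krt14, Krt15 and Krt8, both of Krt18 and the second of Krt10, were above it on 0 to 2 of the 6 arrays.

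**Figure D1:**
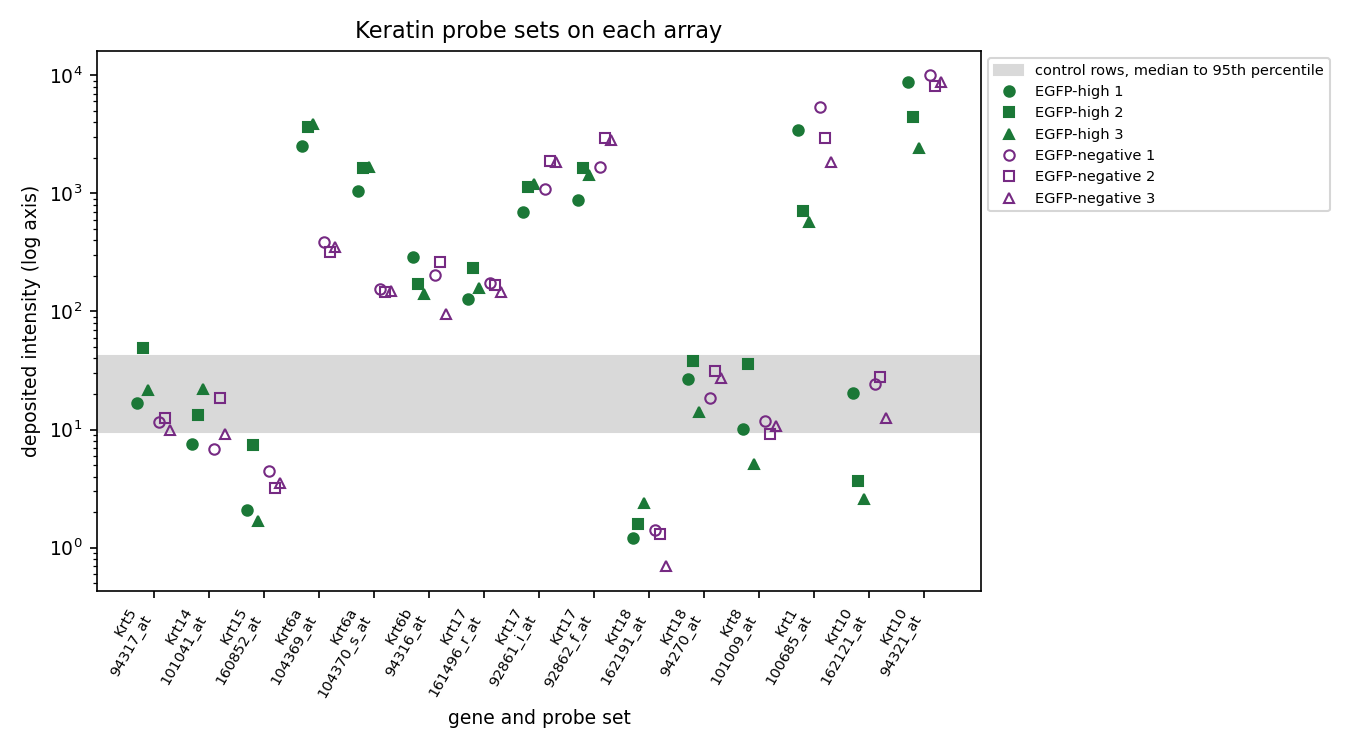
Deposited intensity on a log axis of the 15 keratin probe sets, with filled symbols for the 3 EGFP-high arrays, open symbols for the 3 EGFP-negative arrays and a shape for each array number. The grey band runs from the lowest median (9.6) to the highest 95th percentile (42.25) of the bacterial and yeast control rows. Krt6a lies higher on the EGFP-high arrays, while Krt5, Krt14, Krt15, Krt8 and Krt18 lie in or below the band on most arrays.

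The comparison of EGFP-high with EGFP-negative cells asks which of these keratins differ between keratinocytes with and without the transgene's signal. Krt6a rose in EGFP-high cells, with group means 9.46 and 9.63 times as high on its 2 probe sets. No keratin fell past the threshold when the array numbers were ignored, and Krt17 and Krt1 were lower past it when arrays of the same number were compared with each other. Differences are on the scale of log2(intensity + 19.3), EGFP-high minus EGFP-negative, tested with limma over all probe sets whose mean log2 value was above the 40th percentile, with Benjamini-Hochberg adjustment and a threshold of 0.05. The filter kept 8 of the 15 keratin probe sets, the same 8 that were above the bacterial and yeast rows on every array, and 2 of the 8 passed the test, 2 higher and 0 lower. At an unadjusted limma p under 0.05, 2 were higher and 3 lower (2 probe sets of Krt17 and 1 of Krt10), where 8.47% of all tested probe sets were higher and 8.68% lower. At the adjusted threshold 5.19% of all 7453 tested probe sets passed, 3.02% higher and 2.17% lower. With the array number as a block in the fit, 5 of the 8 passed, 2 higher (both of Krt6a) and 3 lower (2 of Krt17 and 1 of Krt1). Of all tested probe sets 10.4% passed in that fit, 5.13% higher and 5.31% lower. Probe sets of the same gene are not independent, in these counts and in the median that follows. The median log2 difference was -0.30 over the 8 keratin probe sets and -0.00 over all tested.

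The probe sets of the basal keratins read at or near the control rows in both groups. The Krt5 probe set read 16.8, 48.9 and 21.6 on EGFP-high arrays 1, 2 and 3, and 11.7, 12.6 and 10 on EGFP-negative arrays 1, 2 and 3. The groups did not overlap, EGFP-high being higher. That held for 11.6% of all tested probe sets, a set that leaves out this one because of its low level. Only the EGFP-high array 2 was above the 95th percentile of the bacterial and yeast rows. An exact two-sided permutation test gave p = 0.1, the smallest that 3 against 3 arrays allow, and limma without the filter on low values gave an adjusted p of 0.351. Krt14 read 7.5, 13.2 and 22.2 on the EGFP-high arrays, against 6.8, 18.5 and 9.2 on the EGFP-negative arrays. Krt15, the gene whose promoter drives EGFP, read 2.1, 7.4 and 1.7 on the EGFP-high arrays, against 4.5, 3.2 and 3.5 on the EGFP-negative arrays. The groups overlapped for Krt14 and Krt15, and no array stood above the control percentile.

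Other basal genes were bright on the same arrays. Of 8 basal keratinocyte markers on the array, 6 were above the control percentile on all 6 arrays, and the remaining 2 were Krt5 and Krt14. Among the 6 tested, 0 were higher in EGFP-high cells and 1 was lower, Itga6. Col17a1, a collagen of the hemidesmosome, read 6849, 8602 and 8024 on the EGFP-high arrays and 7528, 7026 and 6527 on the EGFP-negative arrays. Trp63, the transcription factor of basal cells, read 1383, 1022 and 1185 on the EGFP-high arrays, against 1672, 1481 and 1431 on the EGFP-negative arrays. Whether the 3 basal keratin probe sets failed or their transcripts were scarce was not tested. Of 6 bulge markers on the array, 5 were above the control percentile on all 3 EGFP-high arrays and 2 on all 3 EGFP-negative arrays, and Krt15 was above it on none.

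Krt6a was the only keratin gene past the threshold in both fits with a rise in EGFP-high cells. Its probe set 104369_at read 2501.9, 3611 and 3855.6 on EGFP-high arrays 1, 2 and 3, against 383.9, 319.2 and 350.8 on EGFP-negative arrays 1, 2 and 3. Every EGFP-high array was far above every EGFP-negative array, with no overlap. The mean was 3323 ± 721 in the EGFP-high group, against 351 ± 32.4 in the EGFP-negative group (SD, n = 3 each), and the log2 difference was 3.15 (SE 0.19, 95% interval 2.72 to 3.59, limma adjusted p = 5.18e-05). The second probe set, 104370_s_at, read 1037.1, 1625.8 and 1677.7 in EGFP-high cells, against 155.3, 145.3 and 150.1 in EGFP-negative cells (log2 3.08, SE 0.20, limma adjusted p = 7.79e-05). Its suffix marks a design that can share signal with related transcripts. The log2 gap between the 2 Krt6a probe sets lay between 1.14 and 1.25 on the EGFP-high arrays and between 1.04 and 1.21 on the EGFP-negative arrays, and the exact two-sided permutation test of this contrast gave p = 0.4.

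By array number the intensity ratio of EGFP-high to EGFP-negative was 6.52, 11.3 and 11.0 for 104369_at and 6.68, 11.2 and 11.2 for 104370_s_at. The pair numbered 1 gave the smallest ratio on both probe sets. EGFP-high array 1 was the lowest of its group and EGFP-negative array 1 the highest of its group. In bulk samples of sorted cells, more cells that hold a transcript and more transcript per cell cannot be told apart.

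Krt6b, whose gene lies next to Krt6a in the RefSeq gene order and encodes a closely related type II keratin, showed no difference past the threshold in either fit. It read 286.8, 171.1 and 141.5 on the EGFP-high arrays, against 204.5, 262 and 94.9 on the EGFP-negative arrays. The groups overlapped, and the log2 difference was 0.13 (95% interval -0.67 to 0.92, limma adjusted p = 0.9). Leaving out EGFP-high replicate 1 turned the sign, to -0.14, and leaving out EGFP-negative replicate 3 gave -0.25. Per array, the log2 value of Krt6a minus that of Krt6b was 3.04, 4.25 and 4.59 in EGFP-high cells, against 0.85, 0.27 and 1.70 in EGFP-negative cells. These 2 groups did not overlap, and the exact two-sided permutation test of this contrast gave p = 0.1, the smallest that 6 arrays allow, as 1 of 4 such contrasts computed. Krt5, the neighbour of Krt6a on its other side, was at the control level as given above.

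Krt17, the type I keratin that accompanies Krt6 in the follicle and in activated epidermis, had differences of the opposite sign to Krt6a on its brighter probe sets, past the threshold with the block only. Probe set 92862_f_at read 882.9, 1633.1 and 1425.5 on the EGFP-high arrays, against 1662.5, 2956.6 and 2803.4 on the EGFP-negative arrays. All EGFP-high arrays were below all EGFP-negative arrays, as for 11.1% of all tested probe sets (22.7% did not overlap in either direction), by a narrow margin between EGFP-high array 2 and EGFP-negative array 1. The log2 difference was -0.90 (95% interval -1.54 to -0.26, limma adjusted p = 0.125), so it missed the threshold without the block. Probe set 92861_i_at read 692.3, 1131.8 and 1206.4 in EGFP-high cells, against 1083.1, 1887.3 and 1837.3 in EGFP-negative cells (log2 -0.65, limma adjusted p = 0.263), and its groups overlapped.

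Within array numbers the Krt17 difference was even. For 92862_f_at the log2 differences were -0.90, -0.85 and -0.97 for numbers 1, 2 and 3, and for 92861_i_at they were -0.63, -0.73 and -0.60. With the block the adjusted p was 0.00147 for 92862_f_at (log2 -0.90, SE 0.10) and 0.00795 for 92861_i_at (log2 -0.65, SE 0.11), lower in 3 of 3 pairs in each case. Both probe sets were lowest on the number 1 array of either group, as were 16% of all tested probe sets. Without EGFP-negative replicate 1 the adjusted p for 92862_f_at was 0.0488, and with the number 1 arrays of both groups left out, which was decided once the values were known, it was 0.0222. Leaving out any other array gave an adjusted p between 0.141 and 0.293 for it, with a log2 difference down in size to -0.65 without EGFP-high replicate 1. For 92861_i_at no array left out gave a call, the difference was -0.41 without EGFP-high replicate 1, and without both arrays of number 1 the adjusted p was 0.0710. The third probe set, 161496_r_at, disagreed. It read 126.4, 235.6 and 159.1 in EGFP-high cells, against 173.2, 168.6 and 147.4 in EGFP-negative cells, a log2 difference of 0.05 (95% interval -0.45 to 0.54). All 3 Krt17 probe sets carry suffixes of designs that can share signal with other transcripts or miss part of their own.

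The change of Krt6a (104369_at) relative to Krt17 (92862_f_at) was compared within arrays. The log2 value of Krt6a minus that of Krt17 was 1.48, 1.14 and 1.42 on EGFP-high arrays 1, 2 and 3, against -2.06, -3.14 and -2.93 on EGFP-negative arrays 1, 2 and 3. Probe sets differ in brightness for the same amount of RNA, so only the step between the groups can be read, and it was 4.06. Krt6a was higher and this Krt17 probe set lower without overlap, so the contrast had to separate the groups. The exact two-sided permutation p of 0.1 was therefore fixed in advance and adds no support. The Krt17 probe set 161496_r_at, with a log2 difference of 0.05, was not compared with Krt6a. Krt16, another type I keratin of activated epidermis, was not tested because of its low level and read 13.1, 28.8 and 35.1 in EGFP-high cells, against 32.9, 37.3 and 85.1 in EGFP-negative cells. S100a8, which is induced in activated epidermis, read 36, 75.1 and 39.3 on the EGFP-high arrays, against 57.2, 40.8 and 55.7 on the EGFP-negative arrays (limma adjusted p = 0.943). Of the 6 markers of companion layer and activated epidermis on the array 4 were tested, and 1 was higher, Krt6a, and 0 lower past the threshold with limma (1 higher and 1 lower, Krt17, at an unadjusted p under 0.05).

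**Figure D2:**
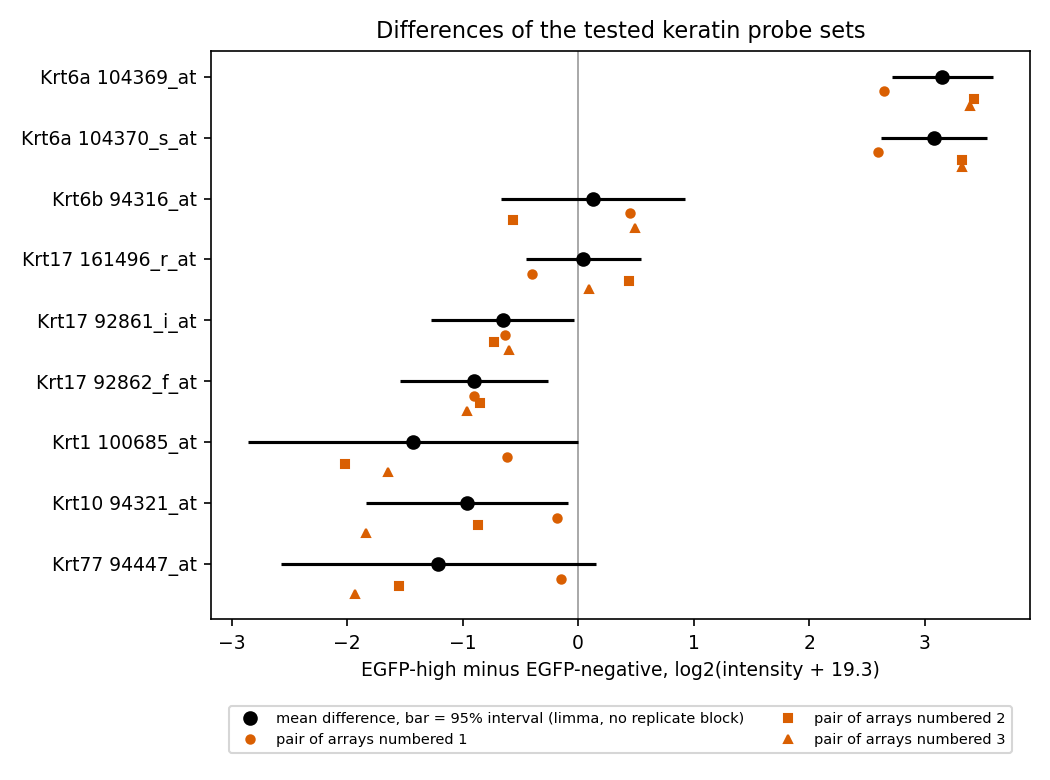
Log2 difference, EGFP-high minus EGFP-negative, of the 8 tested probe sets of the 10 keratins and of Krt77, with its 95% interval from limma without the block (black) and the difference within each pair of arrays of 1 number (orange). The Krt6a points lie between 2.60 and 3.42 and those of the 2 brighter Krt17 probe sets between -0.97 and -0.60, while Krt1, Krt10 and Krt77 spread widely, with the number 1 pair nearest to 0.

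The differentiation keratins were lower in EGFP-high cells in every pair of arrays, and their level also varied with the array number. Krt1 read 3468.1, 711.5 and 570.2 on EGFP-high arrays 1, 2 and 3, against 5336.9, 2939.1 and 1824.5 on EGFP-negative arrays 1, 2 and 3. EGFP-high array 1 lay within the EGFP-negative range and the other 2 lay well below it. The highest reading was 6.08 times the lowest among the EGFP-high arrays and 2.93 times among the EGFP-negative arrays. The log2 difference was -1.43 (SE 0.63, 95% interval -2.86 to 0.00, limma adjusted p = 0.292). With the block it was -1.43 (SE 0.23, adjusted p = 0.00708), lower in 3 of 3 pairs. With EGFP-high replicate 1 left out it was -2.23 (adjusted p = 0.0117), and without both arrays of number 1 it was -1.83 (adjusted p = 0.00559). Leaving out any other array gave no call, and the value was smallest, at -0.95 (adjusted p = 0.592), with EGFP-high replicate 3 left out.

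Krt10, the type I partner of Krt1, followed the same pattern less tightly. Its brighter probe set, 94321_at, read 8799.4, 4399.2 and 2423.9 on the EGFP-high arrays, against 9986.4, 8037.5 and 8705.3 on the EGFP-negative arrays. Only EGFP-high array 1 reached the EGFP-negative range. The log2 difference was -0.96 (95% interval -1.84 to -0.09, limma adjusted p = 0.241), and with the block the adjusted p was 0.0538, so it passed in neither fit. With EGFP-high replicate 1 left out it was -1.44 (adjusted p = 0.0133), without both arrays of number 1 it was -1.35 (adjusted p = 0.0259), and with EGFP-high replicate 3 left out it was -0.51 (adjusted p = 0.517). The second Krt10 probe set, 162121_at, read 20.3, 3.7 and 2.6 on the EGFP-high arrays, against 24.4, 28.1 and 12.6 on the EGFP-negative arrays, at or below the control level throughout.

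Krt77, a type II keratin whose gene is the neighbour of Krt1 and which is not among the 10, was the brightest other keratin probe set and had the same shape. It read 5511.4, 1375.6 and 779.9 on the EGFP-high arrays, against 6116.1, 4057.6 and 3026.1 on the EGFP-negative arrays. The log2 difference was -1.21 (limma adjusted p = 0.362), and with the block the adjusted p was 0.0357. With EGFP-high replicate 1 left out it was -2.01 (adjusted p = 0.00936), and without both arrays of number 1 it was -1.74 (adjusted p = 0.0110). With EGFP-high replicate 3 left out it was -0.61 (adjusted p = 0.681), and with the other 4 arrays left out in turn it lay between that value and -1.45, without a call. Krt1, Krt10 (94321_at) and Krt77 were each highest on the number 1 array of both groups, as were 19.2% of all tested probe sets. The within-pair log2 differences for numbers 1, 2 and 3 were -0.62, -2.02 and -1.65 for Krt1, -0.18, -0.87 and -1.84 for Krt10, and -0.15, -1.55 and -1.93 for Krt77.

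**Figure D3:**
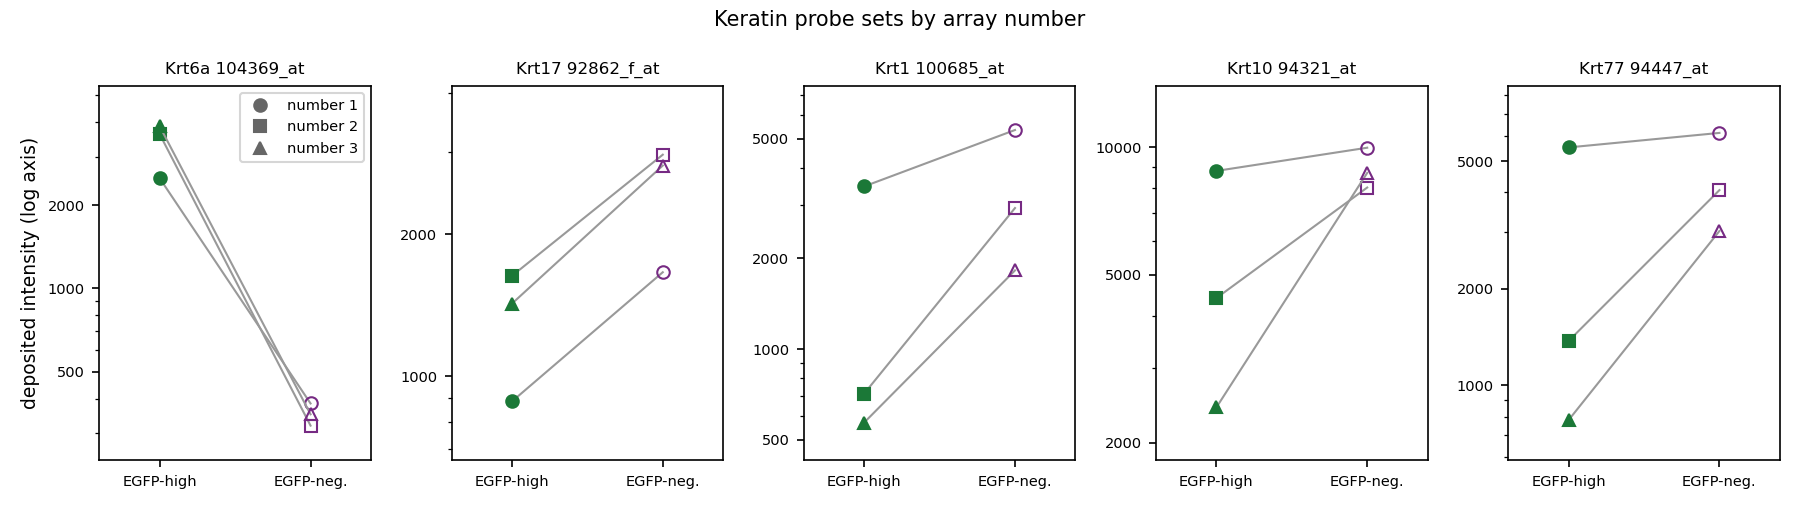
Deposited intensity on a log axis of 5 keratin probe sets, with EGFP-high on the left and EGFP-negative on the right of each panel and a line joining arrays of the same number. Krt1, Krt10 and Krt77 are highest on the number 1 array of either group, Krt17 is lowest there, and Krt6a rises in EGFP-high cells for all 3 numbers.

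Other suprabasal genes did not all follow Krt1 and Krt10. The summed level of the 6 suprabasal markers on the array was 12792, 5589 and 3304 on EGFP-high arrays 1, 2 and 3, against 15793, 11562 and 10867 on EGFP-negative arrays 1, 2 and 3, and Krt1 and Krt10 made up most of it. Dsc1, a desmosomal cadherin of the upper layers, read 94, 21.4 and 30.2 in EGFP-high cells, against 69.1, 50.5 and 63.9 in EGFP-negative cells (limma adjusted p = 0.667). Lor, a main protein of the cornified envelope, read 332.4, 311.6 and 181.2 on the EGFP-high arrays, against 257, 403.4 and 180.5 on the EGFP-negative arrays (log2 difference between -0.69 and 0.69 by its 95% interval). Ivl, another envelope protein, was above the control percentile on 0 of 6 arrays. Among the 5 suprabasal markers tested 0 passed the limma threshold, with 0 higher and 1 lower, Krt10, at an unadjusted p under 0.05. The part that differing shares of suprabasal cells play in the Krt1 and Krt10 values was not tested.

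Simple epithelial keratins were at or near the control level in both groups. Krt8 read 10.1, 36.2 and 5.1 on the EGFP-high arrays, against 11.8, 9.2 and 10.8 on the EGFP-negative arrays. The brighter Krt18 probe set, 94270_at, read 26.6, 37.9 and 14 on the EGFP-high arrays, against 18.4, 31.6 and 27.1 on the EGFP-negative arrays. The other, 162191_at, read 1.2 to 2.4 on the EGFP-high arrays, against 0.7 to 1.4 on the EGFP-negative arrays. EGFP-high array 2 gave the highest value for Krt5, Krt8 and Krt18 (94270_at) alike, and all 3 were above the control percentile there. Of the 8 markers of simple epithelium and Merkel cells, 4 were above the control percentile on no array, among them Krt19, Krt7 and the Merkel cell factor Atoh1. Krt20, a Merkel cell keratin in skin, read 64.6, 83.9 and 29.3 in EGFP-high cells, against 34.4, 52.7 and 56.3 in EGFP-negative cells (limma adjusted p = 0.838).

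Over the rest of the keratin family no difference passed the threshold without the block. Of 35 other keratin probe sets, 19 were tested. With limma at an adjusted p under 0.05, 0 were higher and 0 lower (3.02% and 2.17% of all tested). At an unadjusted p under 0.05, 1 was higher, Krt86, and 0 lower (8.47% and 8.68% of all tested). Differences lay between -1.21 (Krt77) and 0.64 (Krt86). With the block 0 were higher and 1 lower, Krt77 (5.13% and 5.31% of all tested). Krt86, a type II keratin of the hair shaft, read 538.3, 635.9 and 505.3 in EGFP-high cells, against 238.7, 429.9 and 420.3 in EGFP-negative cells (log2 0.64, 95% interval 0.11 to 1.16, limma adjusted p = 0.188). Its EGFP-high arrays were higher with no overlap, as for 11.6% of all tested probe sets. Krt32, a type I hair keratin, read 405, 445.6 and 382.3 on the EGFP-high arrays, against 419.6, 521.9 and 461.3 on the EGFP-negative arrays (limma adjusted p = 0.641). No tested hair or inner root sheath keratin passed the threshold in either fit, and Krt25 and Krt83 were above the control percentile on no array.

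The summed intensity of the 15 keratin probe sets was 14359 ± 3231 in the EGFP-high group, against 17291 ± 1592 in the EGFP-negative group (SD, n = 3 each), with an exact two-sided permutation p of 0.3. The sum was lower in EGFP-high cells in 3 of 3 pairs of arrays, for which the paired exact two-sided test gave p = 0.25, the smallest that 3 pairs allow. Krt1 and Krt10 carried most of the sum on the EGFP-negative arrays.

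Genes whose proteins bind or neighbour keratin filaments were examined from a list of 42, of which 33 had a probe set on the array and 23 were tested, each by its brightest probe set. With limma 0 were higher and 4 lower in EGFP-high cells, where 2.17% of all tested probe sets were lower. At an unadjusted p under 0.05, 0 were higher and 9 lower (8.68% of all tested were lower). With the block 0 were higher and 6 lower (5.31% of all tested were lower). The median log2 difference was -0.34 over the 23 and -0.00 over all tested probe sets. This list was chosen with earlier results of these data known, so its counts beside the shares are a description. Dsg2, a desmosomal cadherin, read 135.4, 124.3 and 151.1 in EGFP-high cells, against 437.8, 309.8 and 460.7 in EGFP-negative cells (log2 -1.42, SE 0.19, limma adjusted p = 0.00292). All EGFP-high arrays were below the EGFP-negative range. Its dimmer probe set read 19.7 to 48.5 on the EGFP-high arrays, against 68.4 to 81.2 on the EGFP-negative arrays and did not pass (adjusted p = 0.0982).

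Pkp1, a plaque protein that ties desmosomes to keratins, fell on both of its probe sets. The brightest read 1045.4, 723.2 and 708.1 in EGFP-high cells, against 1357.9, 1594.7 and 1646.3 in EGFP-negative cells (log2 -0.90, limma adjusted p = 0.0271), and the other gave -1.17 (adjusted p = 0.0214). The call of the brightest was lost when replicate 2 or 3 of either group was left out, with an adjusted p of up to 0.126, and after quantile normalization (adjusted p = 0.0638). Sfn, a 14-3-3 protein of stratified epithelium that binds keratins, read 2078.5, 1727.1 and 1988.1 on the EGFP-high arrays, against 3487.5, 4836.5 and 6552.9 on the EGFP-negative arrays (log2 -1.31, limma adjusted p = 0.0106), and its adjusted p was 0.0531 with EGFP-high replicate 2 left out and 0.0506 with EGFP-high replicate 3 left out. Itga6, the gene of the sorted α6 integrin, read 485.1, 405.6 and 585.3 on the EGFP-high arrays, against 1178.1, 1050 and 1371.4 on the EGFP-negative arrays (log2 -1.26, limma adjusted p = 0.00449).

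The other anchors of the filament network did not pass the test without the block. With it Ppl, a plakin that links keratins to desmosomes, was lower (log2 -0.74, adjusted p = 0.0892 without and 0.0082 with the block). Dsp, which links keratins to desmosomes, read 7338, 6945 and 6990 in EGFP-high cells, against 5919, 6235 and 7769 in EGFP-negative cells (log2 0.10, 95% interval -0.25 to 0.46). Plec, which links keratins to hemidesmosomes, had a log2 difference of -0.14 (limma adjusted p = 0.785). Of the 4 tested cornification genes 0 passed in either limma fit (0 also at an unadjusted p under 0.05), and of the 6 tested intermediate filament genes other than keratins 0 passed without the block (0 higher and 4 lower at an unadjusted p under 0.05) and 1 was lower with it, the nuclear lamin Lmna (log2 -0.51, adjusted p = 0.0193 with the block).

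A list of 37 transcription factors and receptors known to act on keratin or follicle genes had 34 on the array and 33 tested. With limma 4 were higher and 3 lower, where 3.02% of all tested probe sets were higher and 2.17% lower. At an unadjusted p under 0.05, 6 were higher and 5 lower (8.47% and 8.68% of all tested), and with the block 6 were higher and 6 lower (5.13% and 5.31% of all tested). The median log2 difference was -0.10. Dlx3 and Gli2 are among the higher genes in each of these counts, and they entered the test only through the EGFP-high arrays. The list was also chosen with earlier results of these data known. Its counts beside the shares are therefore a description. With no filter on low values 1 regulator was higher and 3 lower with limma at the adjusted threshold. Klf5, a factor of proliferating basal epithelium, had the largest difference of the list at this pseudocount and read 807.6, 339 and 370.8 in EGFP-high cells, against 2084.9, 1833.1 and 2251 in EGFP-negative cells (log2 -2.09, SE 0.30, limma adjusted p = 0.00409). Its groups were far apart on all arrays. Tfap2c, an AP-2 factor of the epidermis, read 455.1, 218.3 and 212.3 on the EGFP-high arrays, against 748.1, 647.1 and 914.4 on the EGFP-negative arrays (log2 -1.40, limma adjusted p = 0.0221). Pou2f3, a POU factor of differentiating keratinocytes named here after its values were seen, was the third that fell (log2 -0.89, limma adjusted p = 0.0119).

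Among the regulators that rose, Dlx3, a homeobox factor of hair formation, read 125.7, 160.8 and 169.2 in EGFP-high cells, against 14.5, 20.2 and 36.3 in EGFP-negative cells (log2 2.02, SE 0.24, limma adjusted p = 0.00189). The EGFP-negative values were near the control level, so the size of this difference depends on the pseudocount and lay between 1.18 and 2.64 over the settings tried. Tcf7l1, a Wnt-pathway repressor of the bulge, rose on both of its probe sets. The brighter read 230, 304.5 and 351.9 in EGFP-high cells, against 39.9, 91.8 and 151.3 in EGFP-negative cells. The log2 difference by limma was 1.58 on the brighter (adjusted p = 0.0345) and 1.90 on the other (adjusted p = 0.00612). That other probe set read 28, 34.1 and 29.1 on the EGFP-negative arrays. Vdr, the vitamin D receptor, read 204, 450 and 506.3 on the EGFP-high arrays, against 95.5, 164.9 and 138.1 on the EGFP-negative arrays (log2 1.35, limma adjusted p = 0.0486), but its other probe set gave 0.31 with overlapping groups (adjusted p = 0.865). Gli2, the Hedgehog effector, read 69.5, 120.1 and 106.8 on the EGFP-high arrays, against 41.1, 26 and 42.5 on the EGFP-negative arrays (log2 1.07, limma adjusted p = 0.0422). Every EGFP-negative reading of Dlx3, of Gli2 and of the second Tcf7l1 probe set was below the filter level of 44.5. They entered the test only through the EGFP-high arrays, and their calls are given as a description. With no filter on low values the adjusted p was 0.00687 for Dlx3 and 0.0919 for Gli2, and under the stricter filter neither was tested. Trp63, with a log2 difference of -0.36, and Nfatc1, a bulge factor with 0.65 (adjusted p = 0.175), did not pass, while with the block Nfatc1 did (adjusted p = 0.0221).

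Several calls of this list depended on single arrays or on the filter. With no filter on low values the limma adjusted p was 0.0928 for Vdr and 0.0731 for Tcf7l1. It was above 0.05 for Vdr without any 1 array other than EGFP-high replicate 1 (up to 0.183, without EGFP-high replicate 3). The same held for Gli2 (up to 0.172, without EGFP-high replicate 2). Tfap2c lost its call when replicate 2 or 3 of the EGFP-high arrays, or 1 or 3 of the EGFP-negative arrays, was left out (up to 0.102). Tcf7l1 lost it with replicate 2 or 3 of the EGFP-high arrays, or 2 of the EGFP-negative arrays, left out (up to 0.148). Pou2f3 lost it with EGFP-high array 3 or EGFP-negative array 2 left out (up to 0.0665). Klf5, Dlx3, Dsg2, Itga6 and both Krt6a probe sets kept theirs without any 1 array.

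**Figure D4:**
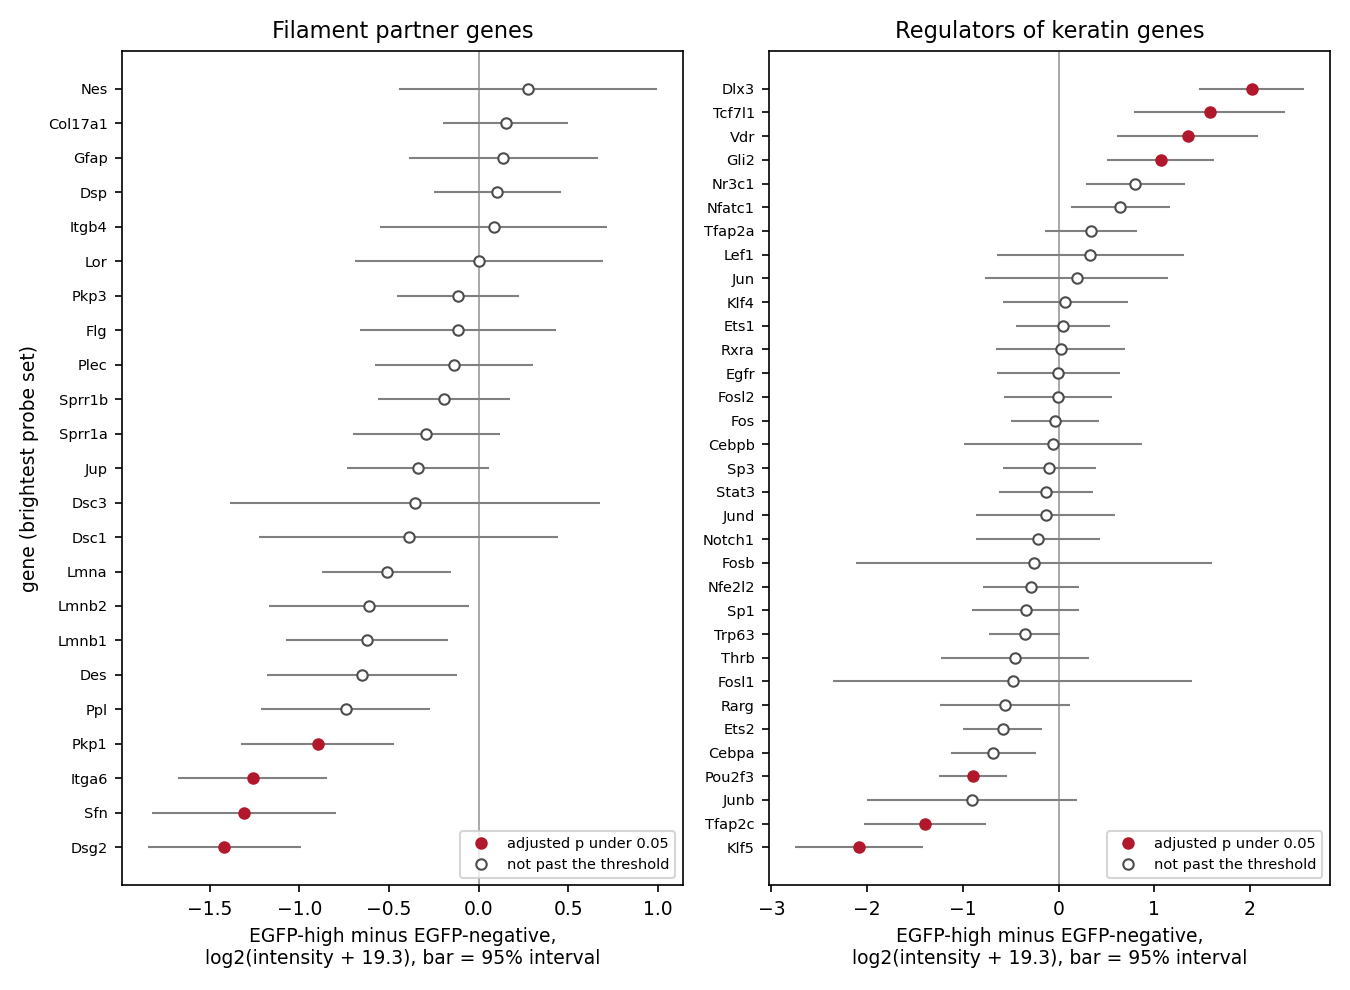
Log2 difference, EGFP-high minus EGFP-negative, with the 95% interval from limma, for the 23 tested filament partner genes (left) and the 33 tested regulators (right), each by its brightest probe set. Red points passed an adjusted p of 0.05: 4 partners, all lower, and 7 regulators, 4 higher and 3 lower. Of these Dlx3 and Gli2 entered the test only through the EGFP-high arrays.

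The genes whose log2 values over the 6 arrays were most like Krt6a were found by Pearson correlation among named tested probe sets. The points share a strong split between groups, so any gene with a large difference between even groups scores high, and no p is given. For 104369_at the closest were Lrrfip1 (r = 0.998), Lgr5 (r = 0.998) and Lgals1 (r = 0.996), and for 104370_s_at Pfn2 (r = 0.998), Lrrfip1 (r = 0.998) and Pdlim3 (r = 0.997). Lgr5, a receptor of follicle stem cells, averaged 320 ± 75.5 in EGFP-high cells, against 5.13 ± 0.839 in EGFP-negative cells, where it lay at the control level. Pdlim3 averaged 191 ± 44.9 in EGFP-high cells, against 24.3 ± 1.93 in EGFP-negative cells. The EGFP-negative means of Lgr5 and Pdlim3 were below the filter level of 44.5. Both entered the test only through the EGFP-high arrays, so their likeness to Krt6a is a description. Lgals1, a galectin, averaged 394 ± 42.5 in EGFP-high cells, against 84.9 ± 7.7 in EGFP-negative cells. Pfn2, a profilin that binds actin, averaged 493 ± 106 in EGFP-high cells, against 121 ± 0.889 in EGFP-negative cells. Lrrfip1 averaged 102 ± 10.7 in EGFP-high cells, against 49 ± 1.96 in EGFP-negative cells (SD, n = 3 for each mean), a far smaller difference at the same correlation.

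Marker lists of other cell types were read for the same arrays. The summed level of 4 T cell markers was 359.6 to 582.6 in EGFP-high cells, against 128.2 to 204.6 in EGFP-negative cells, with Cd7 past the threshold (log2 1.10, limma adjusted p = 0.0143) and the CD3 chains too dim to be tested. Cd3g was above the control percentile on 3 EGFP-high arrays and 1 EGFP-negative array, and its groups overlapped. Cd3e and Cd3d were each above it on 1 EGFP-high array and 0 EGFP-negative arrays. Both read higher in EGFP-high cells without overlap, near the control level. That held for 11.6% of all tested probe sets, a set that leaves out these dim ones. That of 5 melanocyte markers was 308.3 to 479.3 on the EGFP-high arrays, against 258.5 to 290 on the EGFP-negative arrays, with the transcription factor Mitf past it (log2 1.13, limma adjusted p = 0.0147). The pigment enzyme genes of that list did not pass, with Dct at -0.07 (adjusted p = 0.890), and Tyrp1 at -0.15 and Tyr at 0.30 too dim to be tested. The 13 markers of inner root sheath, matrix and hair shaft on the array were also summed. The sums were 1898 to 2244 in EGFP-high cells, against 2609 to 3469 in EGFP-negative cells, with Gata3 lower and Dlx3 higher. Gata3 read 427.8, 476.1 and 460.9 on the EGFP-high arrays, against 1571.5, 2151.6 and 1955.8 on the EGFP-negative arrays. It made up most of the EGFP-negative sums, and the lower sum in EGFP-high cells rested on it. The Langerhans cell, fibroblast and endothelial lists had overlapping sums. The 3 sebaceous markers on the array summed to 1297, 777 and 655 on EGFP-high arrays 1, 2 and 3, against 1554, 1149 and 1160 on EGFP-negative arrays 1, 2 and 3, lower in EGFP-high cells in 3 of 3 pairs and highest on the number 1 array of both groups. Scd1, a fatty acid desaturase of sebaceous cells, made up most of this sum. It was lower with the block (log2 -0.73, adjusted p = 0.244 without and 0.0176 with it). The other sebaceous markers had differences of the opposite sign, Mc5r at 0.34 (limma adjusted p = 0.548) and Pparg at 0.55, too dim to be tested. The part of these cells in the keratin values was not tested.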

How the data were processed

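RNA of 6 sorted keratinocyte samples was measured on 6 Affymetrix arrays. The authors deposited 1 linear intensity per probe set and array, and the software and background method behind it are not stated in the labels or headers. The trimmed mean was the same on every array (150.1), so arrays had been scaled before deposit, and array medians differed by up to 1.09 times, under the limit of 1.2 for rescaling. The number of arrays limits the precision. Of 12422 probe sets that are not controls, 10833 have 1 symbol in the platform annotation, 396 several and 1193 none. RefSeq (GRCm38.p6) was used for names and gene order only.

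Values were analysed as log2(intensity + 19.3), 19.3 being the 25th percentile of values above 0. Probe sets above the 40th percentile of mean log2 (an intensity near 44.5) were tested with limma 3.58.1 in R 4.3.3 (lmFit, eBayes with trend, two-sided, Benjamini-Hochberg). On simulated data for this comparison of 7453 probe sets the fit recovered 74% of 2-fold and 99% of 4-fold changes, with 13 false calls. Deviations from group means correlated at 0.336, 0.368 and 0.305 for numbers 1, 2 and 3, all above the chosen limit of 0.1. Arrays of the same number were therefore also compared as pairs, in the fit with the block. That pairing is inferred from the titles and these values. Unless the block is named, the stated limma p-values, intervals and counts come from the fit without it, as designed, and leave the pairing out. Block values stand beside the named results whose call they change, and not every gene that the block newly calls is named. Named were all probe sets of the 10 keratins, other keratins past the threshold or brightest, up to 6 list genes with the largest called differences, and the 3 patterns most like each called keratin; further list and marker genes were chosen after their values were seen. Members and lists were chosen with earlier results of these data known.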

Additional observations from a re-analysis of the deposited data

How the results depend on the processing

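Both Krt6a probe sets kept their direction and call under all settings tried, with log2 differences between 2.72 and 3.41. For the other keratins the calls depended on the array number and on single arrays. With the replicate block 778 probe sets passed (382 higher, 396 lower), against 387 (225 higher, 162 lower) without it. Keratin probe sets past the threshold came to 5 with the block (3 lower) in place of 2 (0 lower), other keratins to 1 (1 lower), and regulators to 12 (6 lower). Without both arrays of number 1, chosen after seeing the data, 5 keratin probe sets passed (3 lower) and 1 other keratin (1 lower). The block leaves each difference as it is and changes its error. Leaving out 1 array gave 191 to 499 probe sets (106 to 265 higher, 85 to 234 lower), 2 to 4 keratin probe sets (0 to 2 lower), 0 to 1 other keratins (0 to 1 lower), 2 to 5 partner genes (2 to 5 lower) and 2 to 7 regulators (1 to 4 higher, 1 to 3 lower). With no filter 4 regulators passed (1 higher), and 2 were higher with the stricter filter, with arrays divided by their median and after quantile normalization. Signs turned only for small differences: Krt6b to -0.14, -0.25 and -0.035 when EGFP-high replicate 1, EGFP-negative replicate 3 and both arrays of number 1 were left out, and Krt17 161496_r_at to -0.0093 with arrays divided by their median, -0.17 when EGFP-high replicate 2 was left out and -0.02 when EGFP-negative replicate 3 was. Leaving out 1 array gave -0.25 to 0.40 for Krt6b and -0.17 to 0.23 for this Krt17 probe set, and the cause was not tested. Of the 15 keratin probe sets 0 were above the 95th percentile of all control rows on every array, 8 above their median, 8 above the 95th percentile of the bacterial and yeast rows and 9 above the median of those. The ratio of summed keratin levels was 0.83, and 0.76 with the brightest probe set of each gene. Signals near the control rows limit what can be read for Krt5, Krt14, Krt15, Krt8 and Krt18.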
